A study of Mus musculus with 17 samples.

Results

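The cytosolic ribosomal protein genes were examined as a set of 88 of the 24453 gene models in the table of expression values. The members were the protein-coding models whose symbol begins with Rpl or Rps followed by a digit, together with Rplp0, Rplp1, Rplp2 and Rpsa, leaving out the Rps6k kinases and symbols that contain -ps. Of these, 46 encode proteins of the large (60S) ribosomal subunit and 31 proteins of the small (40S) subunit, and 11 are paralogs or near copies (such as Rpl22l1, Rps27l and Rpl36al) or carry a matching symbol without being a subunit (Rps19bp1 and Rpl7l1).

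Polyadenylated RNA was sequenced in 2 kinds of mouse macrophage to ask how AP-1 transcription factors shape macrophage gene expression. Immortalised bone marrow-derived macrophages (iBMDMs) of C57Bl/6EiJ origin carried BRAF(V600E) and Myc in every group, were used at passage 3 to 8 under vehicle, and expressed Cas9. They were infected with a lentivirus carrying 2 guides against Atf3 (Atf3KO), Jun (JunKO) or Jund (JunDKO), or were the control labelled scramble (Scramble, with zsGreen in the title), with 2 libraries per group. Infected cells were sorted on a fluorescent marker, and the sources used here do not say whether a group is 1 clone. Thioglycollate-elicited macrophages (TGEMs), primary peritoneal cells of 8-week-old mice, were given vehicle (Veh) or the TLR4 agonist Kdo2 lipid A (KLA) for 1 h. From C57Bl/6EiJ mice there was 1 library of each treatment, and from Balb/cJ mice there were 1 Veh library and 2 KLA libraries. Where nothing states that replicates came from separate cultures or animals, p-values measure only the spread between these libraries.

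Ribosomal proteins coat the ribosomal RNA of both subunits and are, with few exceptions such as the stalk proteins, needed in equal numbers. Their mRNAs are short and abundant, and most begin with a run of pyrimidines (the 5′ terminal oligopyrimidine motif), through which mTOR and the RNA-binding protein LARP1 control their translation. Processed copies of ribosomal protein mRNAs are scattered through mammalian genomes in large numbers, so that a short read from such an mRNA often matches several places.

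Depth, recovered from the step of 1 read in the deposited values, spanned 1553296 to 18444421 reads per library. All 7 macrophage markers examined reached 1 RPKM in both kinds of cell. Every library is labelled male, yet the 5 TGEM libraries held Xist at 19.2 to 28.1 RPKM and the Y-linked Ddx3y and Kdm5d at 0, with 15 reads of Eif2s3y in C57Bl/6EiJ Veh and 1 read of Uty in Balb/cJ KLA replicate 1, whereas the iBMDM libraries held Xist at no more than 0.029 RPKM, so sex and cell source cannot be told apart and no TGEM result could be given without those libraries. The targeted mRNAs were still present. Atf3 was higher with its own guides, at 154 and 169 RPKM where Scramble had 80.7 and 77.4 RPKM. Jun was also higher with its own guides, at 26.2 and 20.5 RPKM where Scramble had 17.6 and 18.5 RPKM. Jund was lower with its own guides, at 6.94 and 6.07 RPKM where Scramble had 9.19 and 8.33 RPKM. Atf3 and Jun mRNA thus went against the labels as a measure of loss. An edit of the coding sequence need not lower the mRNA, and the western blots by which the study assessed its knockouts are not part of the files used here, so Atf3KO, JunKO and JunDKO below mean the libraries so labelled. The libraries labelled Atf3KO held reads of 10425 and 10631 gene models against 11884 to 12533 in the other iBMDM libraries, and the title of Atf3KO replicate 2 carries a later date than those of the other 7.

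The annotated starts of the members are shown first, because the pyrimidine run is the feature the family is known for. A RefSeq promoter (GRCm38.p6) was found for 66 members. A C within 5 bases of the annotated start followed by at least 4 pyrimidines stood in 29 of these (43.9%), against 18.5% of the 27023 genes with a promoter in the same table. The windows below cover the 20 bases before the annotated start and the first 10 bases from it, and are written 5′ to 3′ on the coding strand, with the C and the pyrimidines after it in capitals. Rplp2, Rps2 and Rpl34 rose and Rpl35, Rpl15 and Rps6 fell in the libraries labelled Atf3KO (described further on). These 6 were chosen, with their values known, from members that hold the run, and Rpl24, which rose, and Rpl13 and Rpl35a, which fell, hold none within 5 bases of the annotated start.
Rplp2, chr7:141447631-141447660, plus strand: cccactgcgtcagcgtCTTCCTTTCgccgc
Rps2, chr17:24720043-24720072, plus strand: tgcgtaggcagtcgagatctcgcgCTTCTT
Rpl34, chr3:130730389-130730418, minus strand: cgcgccgccttccctgacgtaCTTCCTgtc
Rpl35, chr2:39005122-39005151, minus strand: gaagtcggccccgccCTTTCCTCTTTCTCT
Rpl15, chr14:18270977-18271006, minus strand: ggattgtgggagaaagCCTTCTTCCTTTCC
Rps6, chr4:86857358-86857387, minus strand: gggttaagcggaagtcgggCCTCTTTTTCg
In the 300 bases from 250 before to 50 after the start, both strands searched, the ETS motif CCGGAAG stood in 25 of the 66 promoters (37.9%) and in 9.12% of all promoters. The 7-base AP-1 motif, TGACTCA or TGAGTCA, which are reverse complements, stood in 1 member (1.52%) and in 5.16% of all promoters. The 8-base palindrome TGACGTCA, which does not overlap the 7-base form, stood in 5 members (7.58%; Rpl13, Rpl18, Rpl26, Rpl27a and Rps9, named after the search) and in 1.88% of all promoters.

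The members' RPKM values (reads scaled to exon length and to library depth) ran from 0 to 2052 in single libraries. Over the 13 libraries 34 members averaged at least 100 RPKM, 56 averaged at least 16 RPKM and 9 averaged under 1 RPKM. The 10 highest members held 49.0% of the family's mean summed RPKM. Among the highest means were those of Rplp1, Rpl4, Rpl32 and Rplp0, of which Rplp1 and Rplp0 form the stalk that recruits elongation factors and Rpl4 lines the exit tunnel. Rplp1 measured 1015 and 592 RPKM in Scramble, 529.7 RPKM in C57Bl/6EiJ Veh and 658 RPKM in Balb/cJ Veh. Rpl4 measured 828 and 871 RPKM in Scramble, 219 RPKM in C57Bl/6EiJ Veh and 645 RPKM in Balb/cJ Veh. Both were above 100 RPKM in every library.

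**Figure D1:**
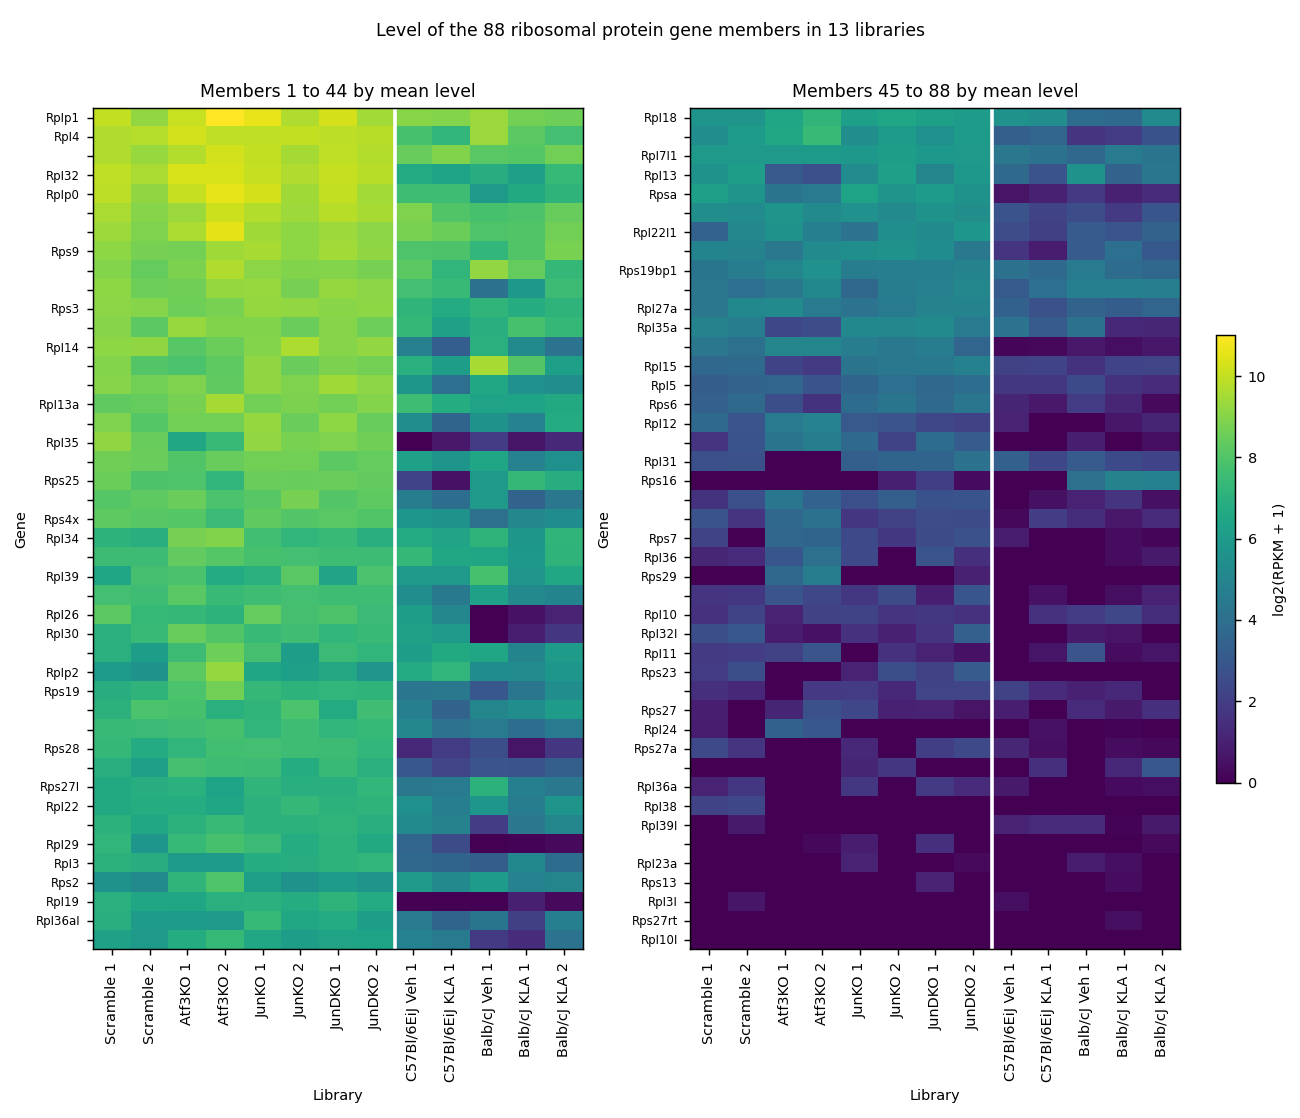
Each row is 1 of the 88 members and each column 1 of the 13 libraries, with colour showing log2(RPKM + 1), members sorted by mean level, labels for genes named in the text and a white line between the 8 iBMDM and the 5 TGEM libraries. Levels run from Rplp1, at 375.8 to 2052 RPKM, to Rpl10l, at 0 in every library, and single members such as Rpl19, Rpl35 and Rps29 change between blocks of libraries.

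The lowest means belonged to Rpl10l, Rps27rt, Rpl3l, Rps13 and Rpl23a. Rpl10l, a testis-expressed relative of Rpl10, was the only member with 0 reads in all 13 libraries, and Rpl3l, the striated muscle relative of Rpl3, had reads in 1 Scramble and 1 TGEM library. Rpl39l, a germline paralog of Rpl39, stayed between 0 and 0.730 RPKM in iBMDMs and reached 1.60 RPKM in Balb/cJ Veh. These 3 are tissue-restricted paralogs. Rps13 and Rpl23a are core subunits of every ribosome, and yet Rps13 was listed at 0 in 11 of the 13 libraries and Rpl23a in 9. Core subunits at or near 0 and core subunits above 100 RPKM stood side by side in the same libraries.

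Among the other members named by function, Rps6, the substrate of the ribosomal S6 kinases, measured 9.34 and 13.1 RPKM in Scramble, and Rps3, which lies at the mRNA entry, measured 537 and 506 RPKM. Rpl5 and Rpl11, which bind 5S rRNA and the MDM2 protein, measured 8.51 and 10.2 RPKM and 2.65 and 2.99 RPKM. Rps27a, made as a fusion with ubiquitin, measured 4.46 and 2.15 RPKM. Rpl22 measured 103 and 110.5 RPKM and its paralog Rpl22l1 9.90 and 33.5 RPKM. Rps27 measured 0.907 and 0 RPKM while its paralog Rps27l measured 102 and 114 RPKM, and Rpl36a measured 1.07 and 2.42 RPKM while its paralog Rpl36al measured 119 and 66.1 RPKM. In both of these pairs the paralog stood above the gene it resembles in every iBMDM library.

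The level went with how much of a transcript can be told from copies. For 87 members the transcript was compared with the whole GRCm38 genome, and the percentage of its 50-base runs with no exact copy elsewhere was counted; the median was 31.6%. Only 4 members had no copied 50-base run, among them Rps19bp1. In the 30 members with under 20% of runs free of copies the median level was 4.91 RPKM in Scramble replicate 1 and 5.80 RPKM in replicate 2, and 4 and 5 of them had 0 reads. In the 26 members with 20% to 50% the medians were 117 and 91.5 RPKM, and in the 31 members with at least 50% they were 103 and 71.9 RPKM. The lowest class stood apart, and the upper classes were close to each other. Across the 87 members, which share each library, Spearman's rho between level and copy-free percentage was 0.29 to 0.44 in the 13 libraries. It was 0.23 to 0.38 with runs of 36 bases and 0.44 to 0.55 with runs of 100 bases. Exceptions were frequent: Rpl35, with 8.19% of its runs free of copies, measured 573 and 343 RPKM in Scramble, and Rps28, with 0.719%, measured 161 and 109 RPKM. How reads with several matches were counted is not given in the sources used here, so an RPKM value of a member with many copies is uncertain as a level of its gene.

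**Figure D2:**
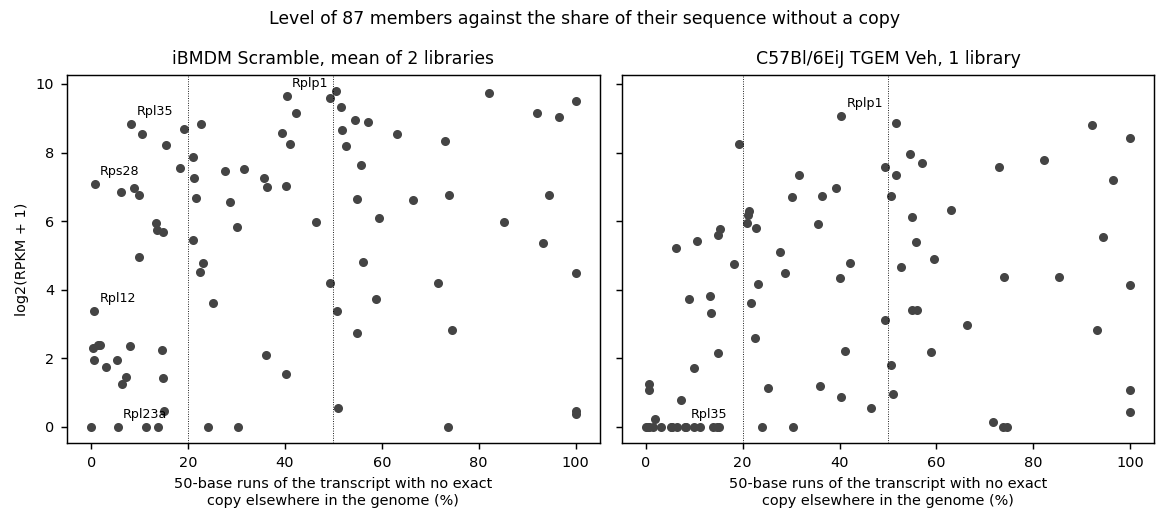
Each point is 1 of 87 members, with the percentage of 50-base runs of its transcript that have no exact copy elsewhere in the genome on the horizontal axis and log2(RPKM + 1) on the vertical axis, for Scramble (left, mean of 2 libraries) and C57Bl/6EiJ Veh (right, 1 library). Dotted lines mark 20% and 50%. Members left of the first line lie mostly low, with medians of 4.91 and 5.80 RPKM in the Scramble libraries and 0.086 RPKM in C57Bl/6EiJ Veh, but single members such as Rpl35 and Rps28 lie high in Scramble.

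The first comparison asked which members differed between Scramble and the libraries labelled Atf3KO, which had received guides against ATF3, an AP-1 monomer of the ATF family. Members moved in both directions: of the 78 tested, 21 (26.9%) rose and 12 (15.4%) fell, against 20.7% of all 10691 tested genes that rose and 20.6% that fell (limma-trend on log2(RPKM + 1), Benjamini-Hochberg adjusted p under 0.05). The members' shares lay near the background. Their median log2 fold change was 0.30, against 0.05 over all tested genes, and the interquartile range was 1.32 log2 units over the members and 1.29 over all tested genes. With the added requirement of a 2-fold change and a mean of 16 RPKM in either group, 11 members were higher (7.84% of all tested genes were) and 4 were lower (4.69%). The values of the libraries of the groups did not overlap for 34 members on the higher side (37.4% of all tested genes) and for 18 on the lower side (33.4%). Without Atf3KO replicate 2 the number that rose was 12 (12.2% of all tested genes), and 5 members were higher with the added requirement (4.88%); without Scramble replicate 2 the number that rose was 11 (8.20%). The members' median was 0.14 with quantile normalization and without the filter on low values.

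Rplp2, the partner of Rplp1 in the stalk, showed the largest rise of a well-covered member. Scramble measured 63.3 and 48.5 RPKM and Atf3KO 302 and 606 RPKM, while JunKO measured 87.8 and 73.9 RPKM and JunDKO 99.4 and 51.7 RPKM. Both Atf3KO libraries lay above all other iBMDM libraries, at a log2 fold change of 2.93 ± 0.39 against Scramble (limma-trend adjusted p = 0.00142). Errors of log2 differences are SEs throughout, with 2 libraries in each iBMDM group. The other stalk proteins did not pass: Rplp0 measured 964 and 574 RPKM in Scramble and 1033 and 1539 RPKM in Atf3KO (log2 0.76 ± 0.37, limma-trend adjusted p = 0.13), and Rplp1 measured 1015 and 592 RPKM in Scramble and 1092 and 2052 RPKM in Atf3KO (log2 0.95 ± 0.45, limma-trend adjusted p = 0.125). Both Atf3KO libraries were above both Scramble libraries for each of these genes, with a wide spread within groups.

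Rps29, a small zinc-finger protein of the 40S head, had 0 reads in both Scramble libraries and 20 and 65 reads in Atf3KO, or 11.8 and 23.3 RPKM. Its level was at least 8.9-fold higher in Atf3KO, taking 3 reads over the Scramble group as the floor (limma-trend adjusted p = 0.00062), a bound of 4.17 without Scramble replicate 1, 4.70 without Scramble replicate 2 and 5.52 without Atf3KO replicate 2. It also had 0 reads in both JunKO libraries and in JunDKO replicate 1, and 7 reads in JunDKO replicate 2, the deepest library. Rpl24, a 60S protein that forms a bridge to the 40S subunit, had 1 read in Scramble and 29 and 34 reads in Atf3KO, which is 19.7 times as many for its depth (95% exact interval from 3.41 to 791 for counting error only, limma-trend adjusted p = 0.0016). The ratio was 10.5 without Scramble replicate 2, and at least 3.09 without Scramble replicate 1, which held the only Scramble read. Outside the Atf3KO pair, Rps29 and Rpl24 each had reads in 1 iBMDM library. Both reached the mean of 1 RPKM needed for testing only through the Atf3KO libraries. In the main fit they could therefore be tested only because they were high there.

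Rps2, which lines the mRNA entry, and Rpl34, a surface protein of the 60S subunit, were chosen after their values were seen. Rps2 measured 48.1 and 37.7 RPKM in Scramble and 146 and 252 RPKM in Atf3KO (log2 2.15 ± 0.31, limma-trend adjusted p = 0.00196). Rpl34 measured 136 and 117 RPKM in Scramble and 423 and 484 RPKM in Atf3KO (log2 1.84 ± 0.24, limma-trend adjusted p = 0.00133). For both, the lowest Atf3KO library was above the highest Scramble library. Rps7 (3.81 and 0 RPKM in Scramble, 11.5 and 10.6 RPKM in Atf3KO) and Rpl36 (1.29 and 1.46 RPKM against 6.81 and 15.5 RPKM) also rose, from 7 and 2 reads in the Scramble group. For Rpl36 this was 8.92 times as many reads for its depth (95% exact interval from 2.36 to 75.4), and 4.97 times without Atf3KO replicate 2. Rps7 lost its call without either Atf3KO library, and Rpl36 kept it in only 4 of 13 alternatives, losing it without any single library of the groups compared.

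The largest falls were those of Rpl13, Rpl31, Rps23, Rpl35a and Rpl32l. Rpl13, a 60S protein, measured 49.8 and 70.6 RPKM in Scramble and 7.38 and 5.38 RPKM in Atf3KO, with 38.1 and 72.7 RPKM in JunKO and 30.9 and 58.0 RPKM in JunDKO. Both Atf3KO libraries lay below every other iBMDM library, and the log2 difference was -3.04 ± 0.39 from Scramble (limma-trend adjusted p = 0.00124), -2.88 ± 0.39 from JunKO (limma-trend adjusted p = 0.00202) and -2.57 ± 0.39 from JunDKO (limma-trend adjusted p = 0.0018). Rpl31, which sits at the mouth of the exit tunnel, measured 5.52 and 5.66 RPKM in Scramble and had 0 reads in both Atf3KO libraries, although these were deeper; with 21 reads in the Scramble group it was at least 22.4-fold lower (limma-trend adjusted p = 0.000413), or at least 8.45-fold without Atf3KO replicate 2 and 13.9-fold without Atf3KO replicate 1. Rpl35a measured 29.0 and 24.2 RPKM in Scramble and 4.24 and 5.15 RPKM in Atf3KO (log2 -2.28 ± 0.24, limma-trend adjusted p = 0.000642).

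Rps23, which carries a loop into the decoding centre, had 8 reads in the Scramble group and 0 in Atf3KO and was at least 8.5-fold lower, and Rps27a had 10 reads and 0 and was at least 10.6-fold lower. These bounds were 3.22 and 4.03 without Atf3KO replicate 2 and 5.30 and 6.62 without Atf3KO replicate 1; at 3 reads against 0, none could be given for Rps23 without Scramble replicate 2 or for Rps27a without Scramble replicate 1. Rpl32l, a near copy of Rpl32, measured 5.28 and 6.94 RPKM in Scramble and 0.772 and 0.469 RPKM in Atf3KO. These 3 rested on few reads: Rps23 lost its call without Scramble replicate 2 or either Atf3KO library, Rpl32l without Atf3KO replicate 2 or Scramble replicate 2, and Rps27a without Atf3KO replicate 2 or Scramble replicate 1. Rpl32 itself measured 989.5 and 774 RPKM in Scramble and 1273 and 1276 RPKM in Atf3KO.

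Better covered members that fell were Rpl35, Rpsa, Rpl15 and Rpl3. Rpl35, at the exit of the tunnel, measured 573 and 343 RPKM in Scramble and 93.8 and 175 RPKM in Atf3KO (log2 -1.78 ± 0.35, limma-trend adjusted p = 0.00599). Rpsa, which is also known as the 67 kDa laminin receptor precursor, measured 72.5 and 50.8 RPKM in Scramble and 17.8 and 23.1 RPKM in Atf3KO (log2 -1.54 ± 0.29, limma-trend adjusted p = 0.00545). Rpl15 measured 11.6 and 13.1 RPKM against 3.84 and 2.64 RPKM (log2 -1.66 ± 0.23, limma-trend adjusted p = 0.00167). Rpl3, next to the peptidyl transferase centre, measured 134 and 116 RPKM against 62.2 and 65.5 RPKM (log2 -0.95 ± 0.16, limma-trend adjusted p = 0.00351). In all 4 the groups did not overlap. Rps6 measured 9.34 and 13.1 RPKM in Scramble and 5.25 and 2.09 RPKM in Atf3KO and fell by 1.46 ± 0.36 on the log2 scale (limma-trend adjusted p = 0.0149), a call lost without Atf3KO replicate 2 or Scramble replicate 2.

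Of the 33 members that passed, 5 that rose (Rps29, Rplp2, Rpl24, Rps2 and Rpl34) and 7 that fell (Rpl13, Rpl31, Rpl35a, Rpl35, Rpl15, Rpsa and Rpl3) passed in each of the 13 alternatives. Rises and falls were found in both subunits: 12 of 42 tested 60S proteins rose and 7 fell, and 8 of 29 tested 40S proteins rose and 4 fell; the shares over all tested genes, 20.7% for rises and 20.6% for falls, are the background of these counts and of those by list that follow. Among 12 genes mutated in Diamond-Blackfan anaemia, an inherited failure of red cell formation, 5 rose and 2 fell. Of these, Rps19 measured 115 and 142 RPKM in Scramble and 239 and 398 RPKM in Atf3KO (log2 1.26 ± 0.25, limma-trend adjusted p = 0.00657), and it passed in every alternative except the GC correction. Of 27 tested members with an oligopyrimidine start 7 rose and 7 fell, and of 31 with a promoter and no such start 6 rose and 3 fell. Rps19bp1, a regulator of sirtuin 1 named for binding Rps19, measured 18.2 and 24.1 RPKM against 31.7 and 46.1 RPKM (log2 0.84 ± 0.23, limma-trend adjusted p = 0.0218). The call was lost without Atf3KO replicate 2 or Scramble replicate 1, and under the GC correction (limma-trend adjusted p = 0.342). Rpl13a, which leaves the ribosome in the interferon-induced GAIT complex, measured 316 and 334 RPKM against 429 and 729 RPKM (log2 0.78 ± 0.25, limma-trend adjusted p = 0.0388), a call kept in only 5 of 13 alternatives and lost without Atf3KO replicate 2 or either Scramble library.

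Base composition moved with these differences. Across the 78 tested members, Spearman's rho between log2 fold change and GC percentage was 0.40, and across 10583 tested genes it was 0.50, all from the same 4 libraries; the part of base composition in the result was not tested beyond a GC correction, under which 18 members rose (22.0% of all tested genes) and 12 fell (19.3%). The copy-free percentage did not rank the fold changes, with a rho of -0.08 over 78 members. Of the 33 members that passed, 12 had under 20% of their 50-base runs free of copies, as had 25 of the 78 tested. Among the 12 were Rpl13 with 13.3%, Rpl24 with 15.1% and Rpl35 with 8.19%.

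**Figure D3:**
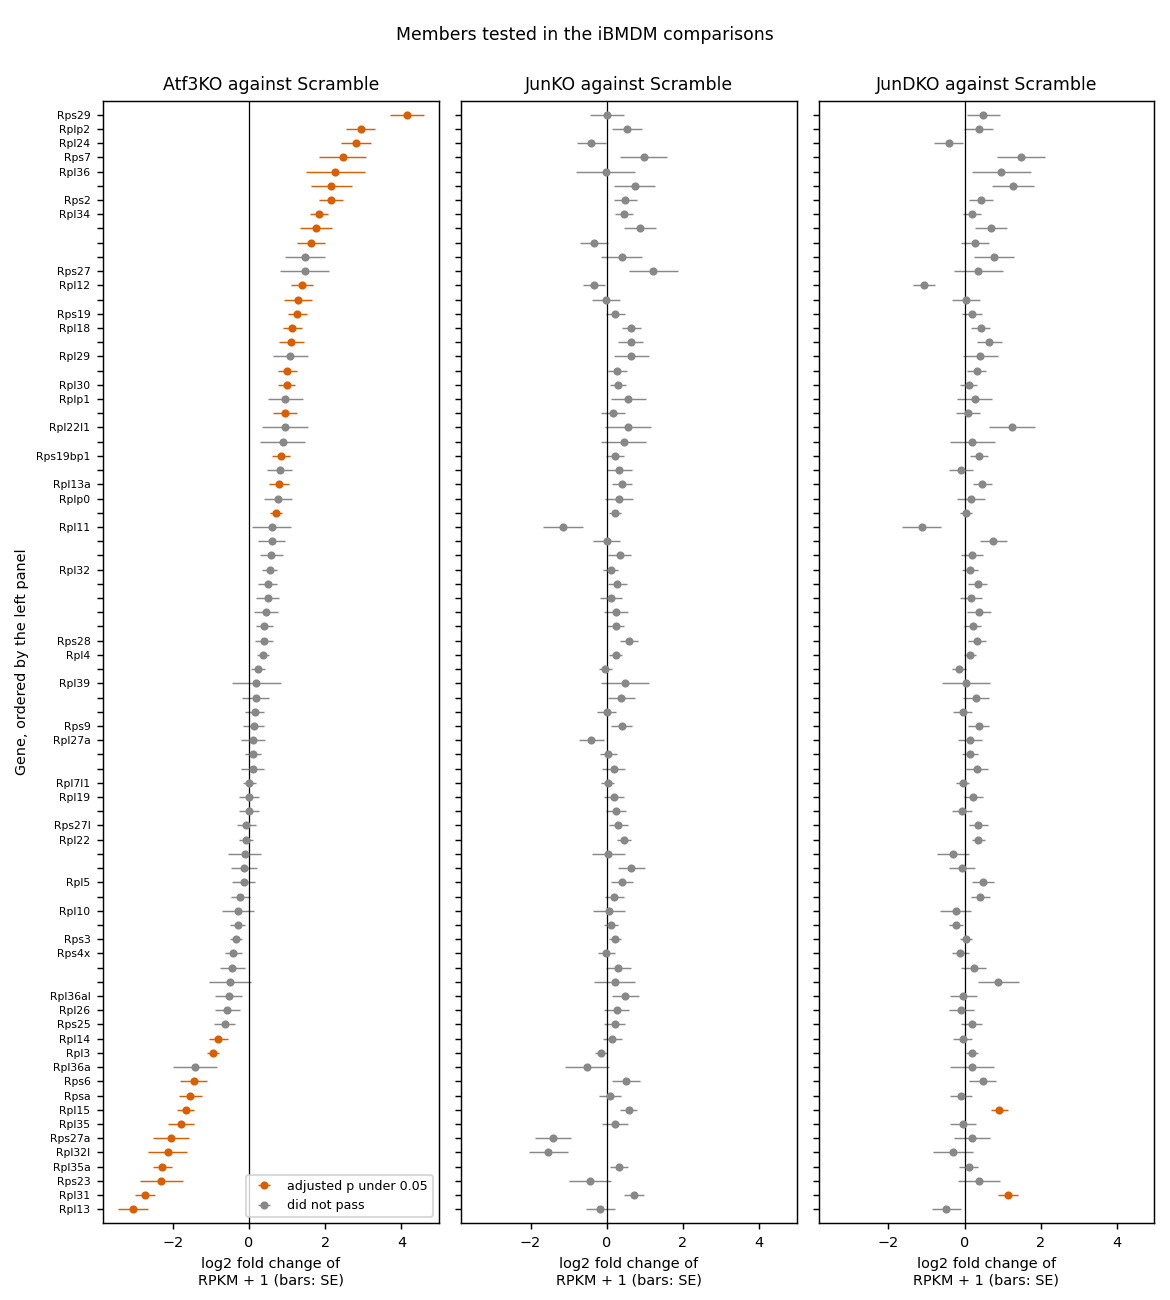
The log2 fold change of RPKM + 1 against Scramble is shown for the 78 tested members in the libraries labelled Atf3KO (left), JunKO (middle) and JunDKO (right), with bars for the SE, orange for an adjusted p under 0.05, the gene order of the left panel throughout and labels for genes named in the text. In the left panel 21 members rose and 12 fell; no member passed in the middle panel, and Rpl15 and Rpl31 rose in the right panel. The 3 panels share the Scramble libraries.

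JunKO and JunDKO were compared with the same Scramble libraries as Atf3KO, so their fold changes are not independent of it. Against Scramble, 0 of 78 tested members passed in JunKO in either direction (limma-trend; 0.159% of all tested genes rose and 0.122% fell), 7 had an unadjusted p under 0.05 (7.88% of all tested genes did), and limma-voom on recovered reads also gave 0. The members' median log2 fold change was 0.24 against 0.01 over all tested genes, but 0.072 without Scramble replicate 2 and 0.10 with the length correction. In JunDKO 2 members rose and 0 fell, against 6.93% and 4.82% of all tested genes. Limma-voom gave the same numbers of members, and 5 members had an unadjusted p under 0.05, where 27.5% of all tested genes had. These fits did not pair libraries of the same replicate number. A replicate block without the Atf3KO libraries, chosen after seeing the data, gave 13 rises (16.8% of all tested genes) and 3 falls (8.07%) in JunDKO. It gave 1 rise (0.664%) in JunKO.

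The pair that rose in JunDKO were Rpl15 and Rpl31. Rpl15 measured 11.6 and 13.1 RPKM in Scramble, 17.6 and 20.0 RPKM in JunKO and 21.1 and 27.5 RPKM in JunDKO (log2 over Scramble 0.92 ± 0.23, limma-trend adjusted p = 0.0383). Rpl31 measured 5.52 and 5.66 RPKM, 9.09 and 10.7 RPKM, and 10.6 and 17.0 RPKM in the same groups (log2 over Scramble 1.13 ± 0.26, limma-trend adjusted p = 0.0288). JunDKO lay above Scramble in every library for both genes. Rpl15 lost its call without any single library of either group, and Rpl31 without either Scramble library or JunDKO replicate 2. Equal library medians moved the median of all tested genes from 0.23 to -0.04 and that of the members from 0.20 to -0.079. Under that scaling 0 members rose (3.21% of all tested genes) and 1 fell (7.22%). The members' median, 0.20, lay close to the unscaled median of all tested genes, and was 0.074 without Scramble replicate 2, 0.34 without Scramble replicate 1, 0.30 without JunDKO replicate 2, 0.016 with the GC correction and 0.072 with the length correction, and with equal library medians the differences were 0.64 for Rpl15 and 0.85 for Rpl31, neither of which passed.

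The knockouts were also set against each other. Between Atf3KO and JunDKO 13 members were higher in Atf3KO (14.9% of all tested genes were) and 13 lower (25.9%), and between Atf3KO and JunKO 12 were higher (17.0%) and 12 lower (18.5%). The split against JunDKO moved with the scaling. It was 18 and 11 with equal library medians (19.8% and 21.2% of all tested genes) and 11 and 17 with quantile normalization (18.0% and 19.9%). Limma-voom gave 20 and 19 (21.7% and 33.0%). In both comparisons Rplp2, Rpl24 and Rps29 were among the 5 largest differences upward and Rpl31, Rpl13, Rpl35a and Rpl15 among the 5 largest downward. These comparisons share the Atf3KO libraries with the first one. Of 28 tested members with at least 50% of 50-base runs free of copies, 0 were higher and 3 lower in each. Rpl12 and Rpl11, described next, had 0.679% and 0.550% of runs free of copies, so their values are uncertain as levels of the genes. Rpl12, which with Rplp0 holds the stalk base, measured 22.1 and 28.6 RPKM in Atf3KO, 4.09 and 3.53 RPKM in JunDKO and 7.46 and 6.49 RPKM in JunKO, and its log2 difference was 2.44 ± 0.29 from JunDKO (limma-trend adjusted p = 0.000715) and 1.71 ± 0.29 from JunKO (limma-trend adjusted p = 0.00478). Rpl11 measured 3.49 and 6.37 RPKM in Atf3KO and at most 1.99 RPKM in the JunKO and JunDKO libraries (limma-trend adjusted p = 0.0303 from JunDKO and 0.0332 from JunKO), from 36 reads against 6 and 2. Against JunKO this was 5.29 times as many reads for its depth (95% exact interval from 1.36 to 45.3), but 3.5 times without Atf3KO replicate 2, 2.65 times without JunKO replicate 1 and at least 1.76 times without JunKO replicate 2. It lost the first call without Atf3KO replicate 2 or either JunDKO library, and the second without either Atf3KO library or JunKO replicate 1. Without JunDKO replicate 2 the counts against JunDKO were 7 (6.35% of all tested genes) and 7 (13.8%), without JunDKO replicate 1 the higher count was 7 (7.78%), and without JunKO replicate 2 the counts against JunKO were 7 (5.06%) and 7 (9.36%). Between JunDKO and JunKO 0 members passed (limma-trend, with 4.33% of all tested genes higher and 3.81% lower). There 3 had an unadjusted p under 0.05 (24.9% of all tested genes did), and limma-voom gave 0. The replicate block without the Atf3KO libraries, chosen after seeing the data, gave 5 lower (7.10%).

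Other genes of translation were counted alongside the members. Of 39 other translation genes tested in Atf3KO against Scramble, 4 rose and 8 fell, against 20.7% and 20.6% of all tested genes. Tpt1, a growth-related protein with an oligopyrimidine mRNA, measured 2.92 and 7.91 RPKM in Scramble and 24.6 and 98.1 RPKM in Atf3KO, and Eef1g, a subunit of elongation factor 1, measured 48.7 and 51.5 RPKM against 120.2 and 112 RPKM. Npm1, the nucleolar chaperone of ribosome assembly, measured 347 and 420.1 RPKM against 143 and 102 RPKM. Of 8 regulators of ribosomal protein mRNA 3 rose (Larp1, Eif4ebp1 and Mtor) and 0 fell, against the same background; Larp1 measured 44.8 and 49.3 RPKM in Scramble and 68.5 and 78.3 RPKM in Atf3KO (log2 0.63 ± 0.16, limma-trend adjusted p = 0.0176). In JunKO 0 of the 39 passed and in JunDKO 1 rose, Eif4b, where 6.93% of all tested genes did.

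KLA for 1 h was compared with Veh over the 5 TGEM libraries with strain as a covariate, to ask what TLR4 activation changed. Of 66 tested members 0 passed in either direction (limma-trend; 1.29% of all 10357 tested genes rose and 0.232% fell), 14 had an unadjusted p under 0.05 (15.0% of all tested genes did), and limma-voom on recovered reads called 8 lower (1.38%). The median log2 fold change was -0.29 against -0.15 over all tested genes. It depended on single libraries. It was -0.045 without C57Bl/6EiJ Veh, -0.091 without C57Bl/6EiJ KLA and -0.135 without Balb/cJ KLA replicate 1, where the median of all tested genes was -0.11, -0.11 and -0.20. It was -0.42 without Balb/cJ Veh and -0.415 without Balb/cJ KLA replicate 2, where the median of all tested genes was -0.18 and -0.105. The members' median thus lay above that of all tested genes in 3 of these 5 fits and below it in 2. With the title date in place of strain it was -0.41, where the median of all tested genes was -0.10. KLA and Veh libraries did not overlap for 11 members on the lower side (18.0% of all tested genes) and 2 on the higher side (5.74%). Rpl14, the member with the smallest p, measured 26.5 RPKM in C57Bl/6EiJ Veh and 8.62 RPKM in KLA, and 124 RPKM in Balb/cJ Veh and 36.2 and 17.4 RPKM in KLA (log2 -1.94 ± 0.37, limma-trend adjusted p = 0.0608, 0.000696 to 0.643 over the alternatives). Rpl35a measured 17.1 RPKM and 7.64 RPKM in C57Bl/6EiJ Veh and KLA, and 16.8 RPKM and then 1.44 and 1.26 RPKM in Balb/cJ (log2 -2.13 ± 0.41, limma-trend adjusted p = 0.0632, 0.0171 to 0.528 over the alternatives). Both were lower after KLA in each strain, also within the Veh and KLA pairs that share a title date, without passing the test. Without C57Bl/6EiJ KLA, or without C57Bl/6EiJ Veh, 2 members were called lower (0.318% and 0.302% of all tested genes), and without Balb/cJ KLA replicate 2, 1 member was (0.135%).

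Myc, a transcription factor known to drive ribosome production, was among the 8 regulators and was the only one that rose after KLA, from 8.29 to 62.5 RPKM in C57Bl/6EiJ and from 4.28 to 26.6 and 22.4 RPKM in Balb/cJ (log2 2.48 ± 0.26, limma-trend adjusted p = 0.00407). Of 37 other translation genes tested 0 passed. A difference of the KLA effect between strains was tested as an interaction with 1 residual degree of freedom; 0 of 66 members passed (limma-trend; 0.00% of all tested genes in each direction), 12 had an unadjusted p under 0.05 (8.06% of all tested genes did), and limma-voom gave 0.

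Strain was compared in the same fit. In Balb/cJ 3 members were higher (0.859% of all tested genes) and 4 were lower (1.45%). Limma-voom called 8 higher (2.46%) and 7 lower (3.68%). Without the filter on low values 1 was higher (0.0969%) and 2 were lower (0.170%). Rpl30 and Rpl26, both 60S proteins, were high in C57Bl/6EiJ and close to 0 in Balb/cJ. Rpl30 measured 77.4 and 58.2 RPKM in C57Bl/6EiJ Veh and KLA, 0 RPKM in Balb/cJ Veh and 0.906 and 2.38 RPKM in Balb/cJ KLA (log2 -5.29 ± 0.44, limma-trend adjusted p = 0.00175). Rpl26 measured 70.7 and 33.2 RPKM, 0 RPKM, and 0.432 and 1.13 RPKM in the same order (log2 -5.09 ± 0.44, limma-trend adjusted p = 0.00192). Rpl29 followed the same order at 11.1, 4.80, 0, 0.082 and 0.216 RPKM, with 100 reads in C57Bl/6EiJ and 2 in Balb/cJ, 89.3 times fewer for the depth (95% exact interval from 24.1 to 747 for counting error only, limma-trend adjusted p = 0.0131) and 44.2 times fewer without C57Bl/6EiJ Veh. These 3 showed no overlap between strains, whatever the treatment. Rpl26 and Rpl29 reached the mean of 1 RPKM needed for testing only through the C57Bl/6EiJ libraries. Of the 50-base runs, 21.3% of Rpl30, 21.1% of Rpl26 and 21.6% of Rpl29 were free of copies. These values are therefore uncertain as levels of the genes. Of 26 tested members with at least 50% of runs free of copies, 0 passed in either direction, where 0.859% and 1.45% of all tested genes did.

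Rps16 and Rps25, 40S proteins, went the other way. Rps16 had 0 reads in both C57Bl/6EiJ libraries and 15.4, 29.5 and 27.7 RPKM in Balb/cJ, at least 82.5-fold higher (limma-trend adjusted p = 0.00086), or at least 18.3-fold without C57Bl/6EiJ Veh. It was also near 0 in the iBMDMs, which are of C57Bl/6EiJ origin, at no more than 3.18 RPKM. Rps16 reached the mean of 1 RPKM needed for testing only through the Balb/cJ libraries. Rps25 measured 3.63 and 0.454 RPKM in C57Bl/6EiJ Veh and KLA, 60.5 RPKM in Balb/cJ Veh and 158 and 115 RPKM in Balb/cJ KLA (log2 5.34 ± 0.58, limma-trend adjusted p = 0.00642). Unlike Rps16, Rps25 measured 367 and 245 RPKM in Scramble, so that its low values belonged to the C57Bl/6EiJ TGEM libraries and not to the iBMDMs. Rplp2 was lower in Balb/cJ (log2 -1.57 ± 0.28, limma-trend adjusted p = 0.0408). Of the 50-base runs, 13.8% of Rps16, 41.1% of Rps25 and 30.2% of Rplp2 were free of copies, so the same limit applies.

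Balb/cJ reads were aligned to a genome of that strain and C57Bl/6EiJ reads to mm10, so strain and alignment genome cannot be told apart, and neither can strain and the date in the title, which no C57Bl/6EiJ library shares with a Balb/cJ library. Rps16 passed in each of 12 alternatives. Without Balb/cJ KLA replicate 1, 1 member was higher (0.144% of all tested genes) and 0 lower (0.164%), and Rpl30, Rpl26, Rpl29, Rps25 and Rplp2 lost their calls; without Balb/cJ Veh, 2 were higher (0.117%) and 1 lower (0.321%), with Rpl30, Rpl29 and Rplp2 lost; without Balb/cJ KLA replicate 2, 5 were higher (1.66%) and 8 lower (2.15%). Rplp2 also lost its call without either C57Bl/6EiJ library. Across 66 tested members Spearman's rho of the strain difference with GC percentage was -0.27, and across 10254 genes it was -0.46.

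The largest difference in the family lay between the kinds of macrophage. Members took 3.63% to 5.29% of the summed RPKM in the 8 iBMDM libraries and 1.06% to 1.72% in the 5 TGEM libraries, with no overlap, so that the mean share was 3.42 times higher in iBMDMs. As a share of exonic reads it was 1.36% to 1.99% against 0.354% to 0.569%. In such bulk samples a smaller number of cells of a type and less RNA per cell cannot be told apart. Within iBMDMs the share was 4.28% and 3.63% for Scramble and 4.83% and 4.20% for JunKO. It was 4.47% and 5.29% for Atf3KO and 5.15% and 4.68% for JunDKO. On this scale Atf3KO and JunDKO lay above Scramble in each library, and JunKO overlapped it. As a share of exonic reads Scramble had 1.61% and 1.36%, Atf3KO 1.71% and 1.99%, JunKO 1.87% and 1.64% and JunDKO 1.76% and 1.60%, so that Atf3KO and JunKO lay above Scramble and JunDKO overlapped it. Atf3KO was the only group above Scramble on both scales. Within TGEMs it was 1.39% in C57Bl/6EiJ Veh and 1.14% in KLA, and 1.72% in Balb/cJ Veh and 1.06% and 1.37% in KLA.

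**Figure D4:**
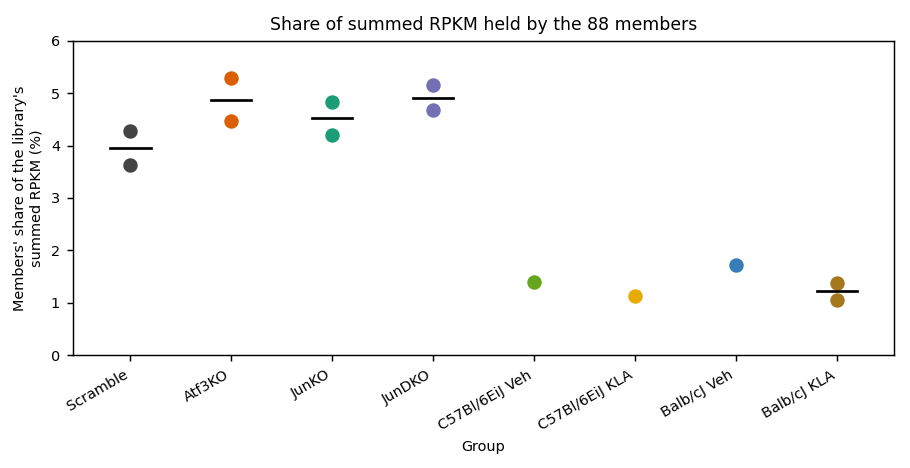
Each point is the percentage of a library's summed RPKM that the 88 members hold, by group, with a bar for the mean of groups with 2 libraries. The 8 iBMDM libraries lie between 3.63% and 5.29% and the 5 TGEM libraries between 1.06% and 1.72%.

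TGEM Veh was compared with iBMDM Scramble as the mean of both strains in a fit over all 13 libraries. Each strain had 1 Veh library, so neither Veh group added to the spread behind the SEs and p-values. That spread came from the iBMDM groups and Balb/cJ KLA, which had 2 libraries each. A difference between the Veh libraries of the strains was not part of it. Of 79 tested members 53 (67.1%) were lower and 1 was higher in TGEMs, against 33.7% and 16.2% of all 10929 tested genes, and 41 were lower with the 2-fold and 16 RPKM requirement (12.8% of all tested genes). The median log2 difference was -1.59 over the members and -0.32 over all tested genes, and 33 of the 53 passed in each of 13 alternatives. Equal library medians moved the median of all tested genes to -0.02, and with that scaling 48 members were lower (23.7% of all tested genes) and 3 higher (23.6%), with a members' median of -1.29. The libraries did not overlap for 58 members on the lower side (44.3% of all tested genes) and for 3 on the higher side (22.9%).

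Rpl35 and Rpl19 showed the largest differences and were at or near 0 reads in TGEMs. Only 8.19% and 9.87% of their 50-base runs are free of copies, so these values are uncertain as levels of the genes. Rpl35 measured 573 and 343 RPKM in Scramble, 0 RPKM in C57Bl/6EiJ Veh and 2.87 RPKM in Balb/cJ Veh, and at most 1.36 RPKM in the 3 KLA libraries. With 755 reads in the Scramble group and 3 in TGEM Veh, it was 950.1 times lower for the depth (95% exact interval from 324 to 4617 for counting error only, limma-trend adjusted p = 2.89e-06). All 3 reads were from Balb/cJ Veh, and without the deeper C57Bl/6EiJ Veh library the ratio was 162. Rpl19, at the tunnel exit of the 60S subunit, measured 126 and 88.04 RPKM in Scramble and had 0 reads in both Veh libraries, at least 362-fold lower (limma-trend adjusted p = 2.4e-06), or at least 61.8-fold without C57Bl/6EiJ Veh. The C57Bl/6EiJ Veh library, with 11404529 reads, was deeper than either Scramble library.

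Rps28, Rpsa and Rpl26 completed the 5 largest falls. Rps28 measured 161 and 109 RPKM in Scramble and 1.37 and 5.32 RPKM in C57Bl/6EiJ and Balb/cJ Veh (log2 -5.11 ± 0.36, limma-trend adjusted p = 1.53e-05). Rpsa measured 72.5 and 50.8 RPKM against 0.473 and 2.54 RPKM (log2 -4.76 ± 0.30, limma-trend adjusted p = 1.02e-05). Rpl26 measured 301 and 164 RPKM against 70.7 and 0 RPKM (log2 -4.72 ± 0.35, limma-trend adjusted p = 1.93e-05), so that for it the strains of TGEM stood far apart. All 5 passed in each of 13 alternatives.

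Members with most of their runs free of copies were lower too. Rps3, with 96.5% of its 50-base runs free of copies, measured 537 and 506 RPKM in Scramble and 144 and 146 RPKM in TGEM Veh (log2 -1.84 ± 0.18, limma-trend adjusted p = 8.85e-05). Rpl7l1, a pre-ribosome factor with 85.2% of runs free of copies, measured 61.6 and 60.97 RPKM against 19.8 and 12.3 RPKM (log2 -1.90 ± 0.18, limma-trend adjusted p = 5.71e-05). Of the members tested, 23 of 28 with at least 50% of runs free of copies were lower, 13 of 25 with 20% to 50% and 17 of 26 with under 20%, with median log2 differences of -1.44, -1.45 and -1.77. Spearman's rho between the difference and the copy-free percentage was 0.08 over 79 members.

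By role, Rplp0 was lower (964 and 574 RPKM in Scramble, 191 and 61.6 RPKM in TGEM Veh; log2 -2.76 ± 0.38, limma-trend adjusted p = 0.00052), whereas the other stalk proteins did not pass, with log2 differences of -0.39 ± 0.45 for Rplp1 and 0.20 ± 0.39 for Rplp2. Of the 8 tested tunnel and exit proteins 6 were lower, and of the 8 on the mRNA path 6 were lower, where 33.7% of all tested genes were. Rps19 (log2 -3.35 ± 0.36, limma-trend adjusted p = 0.000131), Rpl3 (log2 -3.48 ± 0.34, limma-trend adjusted p = 8.17e-05) and Rps6 (log2 -2.07 ± 0.42, limma-trend adjusted p = 0.00376) were lower. Rps4x, an X-linked 40S protein, measured 311 and 279.7 RPKM in Scramble and 53.6 and 15.5 RPKM in TGEM Veh (log2 -3.30 ± 0.24, limma-trend adjusted p = 1.63e-05), in libraries that held Xist. The paralog Rps27l measured 102 and 114 RPKM in Scramble, 19.7 RPKM in C57Bl/6EiJ Veh and 133 RPKM in Balb/cJ Veh; its call (log2 -1.05 ± 0.25, limma-trend adjusted p = 0.00903) was lost without Scramble replicate 2 and under the GC correction and turned to log2 0.30 without the C57Bl/6EiJ library.

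Rps16 was the only member higher in TGEM Veh than in Scramble, and its reads came from Balb/cJ: 0 in both Scramble libraries and in C57Bl/6EiJ Veh, and 15.4 RPKM in Balb/cJ Veh. It reached the mean needed for testing only through the Balb/cJ libraries. The call (limma-trend adjusted p = 0.0113) was lost without Balb/cJ Veh, without Scramble replicate 2 and in limma-voom.

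**Figure D5:**
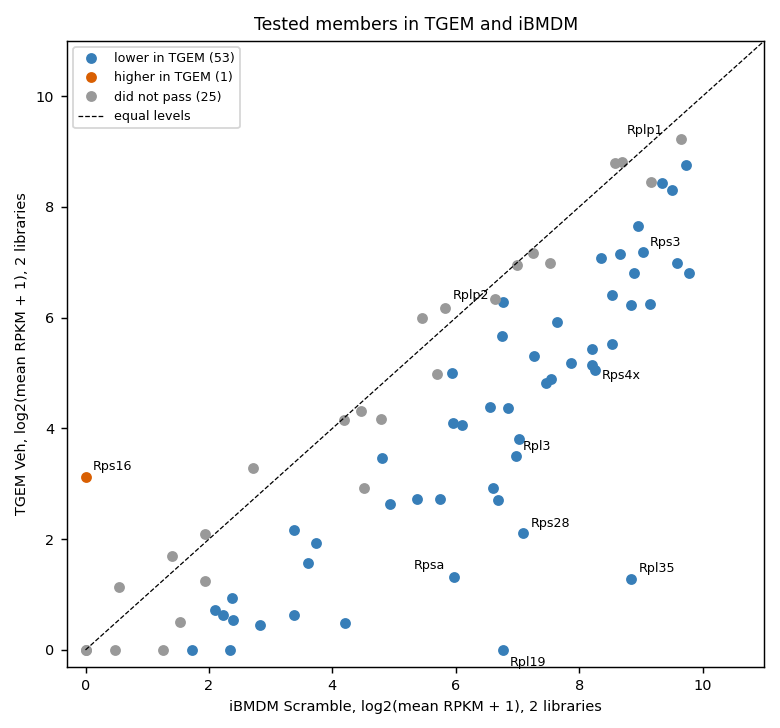
Each point is 1 of the 79 tested members, with log2(mean RPKM + 1) of the 2 Scramble libraries on the horizontal axis and of the 2 TGEM Veh libraries on the vertical axis, a dashed line for equal levels, blue for 53 members lower in TGEMs, orange for 1 higher and grey for those that did not pass. Most points lie under the line, Rpl35 and Rpl19 farthest, and Rps16 lies on the vertical axis.

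The other translation genes showed the same direction: of 39 tested, 33 were lower in TGEM Veh and 2 higher (Tpt1 and Eif2s3x), against 33.7% and 16.2% of all tested genes. Npm1 measured 347 and 420.1 RPKM in Scramble and 20.4 and 18.1 RPKM in TGEM Veh, and Eef1a1, the main elongation factor, 2766 and 2276 RPKM against 481 and 329 RPKM. Tpt1 measured 2.92 and 7.91 RPKM in Scramble and 59.8 and 289 RPKM in TGEM Veh. Of the 8 regulators 2 were higher and 2 lower. Myc, which the iBMDMs also carry as a transgene, measured 49.0 and 22.7 RPKM in Scramble and 8.29 and 4.28 RPKM in TGEM Veh, and the part of this in the members' levels was not tested.

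Markers of other cell types moved with this comparison as well. All 4 B cell markers reached 1 RPKM in TGEMs and summed to 10.1 to 23.9 RPKM, against no more than 0.488 RPKM in iBMDMs, where Cd79b was at 0. Of 5 fibroblast and mesothelial markers 4 reached 1 RPKM in TGEMs, with sums of 25.7 to 49.7 RPKM against no more than 0.221 RPKM in iBMDMs, where Col1a1, Msln and Upk3b were at 0. The 3 mast cell markers summed to 1.78 to 13.2 RPKM against no more than 0.264 RPKM, the 3 eosinophil markers to 0.673 to 4.06 RPKM against no more than 1.29 RPKM, and the 5 neutrophil markers to 0.794 to 13.4 RPKM against 0 to 41.1 RPKM, with Ly6g at 0 in both. The 3 T cell markers summed to no more than 0.519 RPKM in TGEMs and were at 0 in iBMDMs. The 7 macrophage markers summed to 8000 to 11004 RPKM in TGEMs and 16767 to 32967 RPKM in iBMDMs. The part of other cells in the members' levels was not tested.

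Some members lay below the limit for testing in a way that differed between groups. Rpl38, known for its role in translating Hox mRNAs and chosen here after its values were seen, had 2 reads in each Scramble library (3.71 and 4.19 RPKM) and 0 reads in the other 11 libraries, including JunDKO replicate 2 with 18444421 reads. Its mean was under 1 RPKM, so it was tested only in the fit without the filter on low values, where it passed as lower in Atf3KO, JunKO and JunDKO (limma-trend adjusted p = 0.000658, 0.00329 and 0.000313) and in TGEM Veh (limma-trend adjusted p = 5.32e-07). These calls rest on 4 reads in all, shared by every one of these comparisons.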

How the data were processed

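The authors deposited RPKM values per gene model, made, per the labels and the table header, with STAR at default settings on mm10 (or a Balb/cJ genome) and HOMER over exons with isoforms condensed. Versions, read length, strand setting and the counting of reads with several matches are not given in the sources used here. Of the 17 samples, the 4 of GRO-seq were left out (not analysed here).

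Gene models averaging 1 RPKM or more were fitted as log2(RPKM + 1) with limma-trend (limma 3.58.1, R 4.3.3), over 8 iBMDM libraries (4 residual degrees of freedom), 5 TGEM libraries with treatment and strain (2), or all 13 libraries as 8 groups (5). Two-sided p-values were corrected with the Benjamini-Hochberg method over all tested genes of a comparison. Fold changes on this scale understate changes of low genes. Depth came from whole reads: 100% of values up to 50 reads were whole within 0.05 reads or the rounding of the value. Where a group had 0 reads, 3 reads over the group gave a bound; intervals and floors cover counting error only. Copies were exact matches of transcript runs in GRCm38, on either strand, that did not overlap the span of the gene itself. Promoters and starts are from RefSeq on GRCm38.p6.

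The members and lists were chosen with earlier results of these data known, and so were the tests. Named members were the 5 largest passing changes in each direction of a comparison, the 5 highest and 5 lowest means, and a list of members with known roles; Rps2, Rpl34, Rpl14, Rpl32, Rpl38, the members named for TGACGTCA and the members listed as passing in every alternative were named after their values were seen. Other translation genes were named up to 3 per direction; Eif4b and the regulators that passed were named whole. Alternatives were pseudocount 5, no filter, equal library medians, quantile normalization, limma-voom, GC and length correction, replicate blocks and leaving out each library. For KLA the title date was also used in place of strain, and for TGEM Veh the C57Bl/6EiJ library alone. The fits were also run on simulated libraries with known changes, and the outcome is not reported here. Some genes that the naming rules would choose are not reported here. Python 3.11.15 was used.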

Additional observations from a re-analysis of the deposited data

How the results depend on the processing

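The alternatives gave 252 counts of members that passed, of which 193 stayed within 1.5 times the reported count and 59 did not. The share of all tested genes in the same fit stands in brackets after a count. With 1 library left out, 11 to 20 members rose (8.20% to 20.4%) and 8 to 13 fell (11.3% to 20.9%) in Atf3KO against Scramble, 0 to 1 rose (1.56% to 2.85%) and 0 to 1 fell (2.21% to 2.67%) in JunDKO against Scramble, 7 to 17 were higher (6.35% to 15.1%) and 7 to 16 lower (13.8% to 25.9%) in Atf3KO against JunDKO, 7 to 14 higher (5.06% to 17.0%) and 7 to 13 lower (9.36% to 18.6%) in Atf3KO against JunKO, 0 to 1 higher (0.636% to 1.52%) in JunDKO against JunKO, 0 to 2 lower (0.00962% to 0.318%) after KLA, 1 to 5 higher (0.117% to 1.66%) and 0 to 8 lower (0.164% to 2.15%) in Balb/cJ, and 0 to 1 higher (11.4% to 15.3%) and 44 to 46 lower (24.9% to 29.1%) in TGEM Veh against Scramble; a lone library of a group is then assumed to vary like the other groups. Without the filter on low values 1 member (Rpl38) fell in JunKO (0.0885%), 0 rose (4.62%) and 1 (Rpl38) fell (3.63%) in JunDKO, 1 was lower in JunDKO against JunKO (2.85%), and 1 was higher (0.0969%) and 2 lower (0.170%) in Balb/cJ. Equal library medians, quantile normalization and the length correction each gave 0 rises (3.21%, 4.40% and 4.13%) and 1 fall (7.22%, 6.24% and 6.33%) in JunDKO against Scramble, and the GC correction gave 1 fall there (9.42%) and 1 member lower in JunDKO against JunKO (7.87%). Limma-voom gave 20 members higher in Atf3KO against JunDKO (21.7%), 8 lower after KLA (1.38%), 8 higher (2.46%) and 7 lower (3.68%) in Balb/cJ, and 0 higher in TGEM Veh (13.6%). In TGEM Veh against Scramble 3 members were higher with equal library medians (23.6%) and with the length correction (22.6%), 2 with quantile normalization (23.5%) and with the GC correction (24.5%), and 0 with C57Bl/6EiJ Veh alone (15.5%). The fit without the Atf3KO libraries, chosen after seeing the data, gave 1 fall in JunDKO (5.58%). The cause of these changes was not tested, except that fewer libraries leave fewer residual degrees of freedom. The mean share of the members was 3.77 times higher in iBMDMs when counted in reads, against 3.42 in RPKM.

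Members' medians changed sign in JunDKO against Scramble with equal library medians (-0.079), in Atf3KO against JunDKO with quantile normalization (-0.062), in JunDKO against JunKO with quantile normalization (0.087) and with 1 library left out (-0.080 to 0.034, above 0 without JunDKO replicate 2 or JunKO replicate 1), and in Balb/cJ with 1 library left out (-0.015 to 0.21, below 0 without Balb/cJ KLA replicate 2). The difference of Rps27l in TGEM Veh ran from -2.40 to 0.30 with 1 library left out, and was 0.30 without C57Bl/6EiJ Veh (limma-trend adjusted p = 0.465). With equal library medians the median of all tested genes moved from 0.05 to -0.07 in Atf3KO against Scramble, from 0.23 to -0.04 in JunDKO against Scramble, from -0.15 to 0.01 in Atf3KO against JunDKO, from 0.23 to -0.02 in JunDKO against JunKO, from -0.15 to -0.01 after KLA and from -0.32 to -0.02 in TGEM Veh against Scramble. The percentage of all calls that were higher moved from 59.0% to between 30.8% and 44.9% in JunDKO against Scramble, from 36.5% to between 47.5% and 52.7% in Atf3KO against JunDKO, from 53.2% to between 27.0% and 43.0% in JunDKO against JunKO, and from 32.5% to between 47.1% and 49.8% in TGEM Veh against Scramble, over the scalings and the GC and length corrections. Members in Atf3KO against JunDKO then split into 18 higher and 11 lower with equal library medians (19.8% and 21.2% of all tested genes), 11 and 17 with quantile normalization (18.0% and 19.9%), 19 and 11 with the GC correction (22.4% and 20.1%) and 16 and 11 with the length correction (20.8% and 19.9%).

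Replicate numbers are shared by the iBMDM titles, with 2 per group, too few to take them as pairing the libraries. Deviations of same-numbered libraries from their group means correlated over 78 members at 0.40 to 0.56 among Scramble, JunKO and JunDKO and at -0.42 to -0.34 with Atf3KO. A replicate block gave 1 rise in JunDKO against Scramble (5.43% of all tested genes). In a fit without the Atf3KO libraries, chosen after seeing the data, the replicate block gave 1 rise in JunKO (0.664% of all tested genes rose), 13 rises (16.8%) and 3 falls (8.07%) in JunDKO, and 5 lower in JunDKO against JunKO (7.10%). A crossed block, also chosen after seeing the data, gave 34 rises in Atf3KO against Scramble (26.7% of all tested genes), 21 higher (19.7%) and 20 lower (30.9%) against JunDKO and 20 higher against JunKO (23.7%). Calls over all tested genes rose under these blocks as well. The TGEM groups share too few replicate numbers for a block.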
